A study of Mus musculus with 12 samples.

Results

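Mouse embryonic stem (ES) cells labelled as deleted for Smchd1 (del/del) were followed from day 5 to day 8 of differentiation towards neuromesodermal progenitors. The account covers all genes of the deposited RNA-seq table. The comparison rests on 4 of the 12 libraries of the study, namely Smchd1 del/del day 8 (2 libraries, line 1 and line 3) against Smchd1 del/del day 5 (2 libraries, the same lines), and these were taken by their column names, with no use of any measured value. Of 25965 genes in the table, 14063 had enough reads to be tested. Each male C57BL/6 ES line came from its own blastocyst in 2i+LIF medium and was divided, and 1 part was transduced with MSCV-Cre-puro, a retrovirus carrying Cre and a puromycin resistance gene, to delete the floxed Smchd1 alleles. The del/del cells are therefore transduced and puromycin-selected populations, and the fl/fl cells are the untransduced part of the same line, so deletion and transduction cannot be told apart. Both were weaned into serum+LIF and then differentiated in Fgf2 without LIF, with a Gsk3 inhibitor from day 2 and Gdf11 from day 6. Day 5 thus precedes Gdf11, and day 8 follows 2 days of it. The earliest samples, before differentiation, carry the label day 1, although the protocol counts them as day 0. No day 8 culture without Gdf11 was analysed here, so the effect of Gdf11 and that of 3 more days of culture cannot be told apart.

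Neuromesodermal progenitors (NMPs) are bipotent cells of the embryonic tail bud that feed both the spinal cord and the paraxial mesoderm, and they are known by the joint presence of the transcription factors T (Brachyury) and Sox2 under Wnt and Fgf signals. Gdf11 is a ligand of the TGF-beta family that signals through activin receptors and Smad2 and Smad3. In the mouse embryo it times the switch from trunk to tail and the activation of the posterior (5′) Hox genes. Smchd1 is a chromatin protein related to the structural maintenance of chromosomes (SMC) family that takes part in X inactivation, imprinting and the silencing of gene clusters.

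The 4 libraries held 8.11 and 7.57 M gene reads at day 8 (line 1 and line 3), against 4.78 and 3.99 M at day 5. Levels are given as rescaled CPM (reads per M reads of the library), which are the deposited values set so that the median gene has equal levels in all libraries, and all log2 differences are therefore relative to the median gene. On the deposited scale, the median gene was itself 0.69 log2 higher at day 8. The day 8 libraries resembled each other (Spearman's rho across tested genes 0.983) more than the day 5 libraries did (0.947), and on the second principal component line 3 of day 5 scored 15, against -33.3 for line 1. In these files, the change from day 5 to day 8 was lower in densely read genes than in sparsely read ones. The gene Eef1a1, a translation elongation factor, had 1830 and 1781 reads at day 8 and 1883 and 1696 reads at day 5, and the median log2 difference was 0.27 in the tenth of genes with fewest reads per kb and -0.30 in the tenth with most. How far that trend enters single results was not tested apart from a fit with the trend removed. Values from that fit are given over all genes, for the cell cycle list and for Wnt5a, Wnt5b and Wnt11. Further list counts and medians from it stand in the closing section.

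Smchd1 reads remained low on both days. The gene had 3.78 and 3.53 CPM at day 8, against 4.14 and 5.19 CPM at day 5 (log2 difference -0.34 ± 0.24 SE, limma adjusted p = 0.369). The fl/fl cells had 24.2 and 15.9 CPM at day 8 and 16.5 and 23.0 CPM at day 5, so every del/del library lay below every fl/fl library of these days. The reads that are left were not assigned to exons here.

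Between day 5 and day 8, the genes that fell in del/del cells included the NMP factor T, the segmentation genes Dll1 and Hes7, and Cdh1 and Epcam of epithelia. Those that rose included 9 posterior Hox genes, the limb and lateral mesoderm factors Tbx2 and Prrx1 and 12 collagens. Of 14063 tested genes, 1018 (7.24%) were higher at day 8 and 657 (4.67%) were lower at an adjusted p under 0.05 in limma, together 11.9% of the genes tested. The list counts below are to be read against these shares of 7.24% and 4.67%. The increases were larger, with a median of 1.57 log2 against -1.05 among the decreases, and 394 genes rose more than 4-fold, against 140 that fell more than 4-fold. The direction of calls varied with read density. In the tenth of genes with fewest reads per kb 11.4% were called higher and 2.44% lower. In the tenth with most, 1.73% were called higher and 9.38% lower. How far read density enters the sizes was not tested. Without rescaling to the median gene, 1096 genes (7.79%) were called higher and 51 (0.363%) lower, so the share of calls that were higher moved to 95.6% from 60.8%, and every statement on genes that fell is relative to the median gene. With the read density trend removed, 837 genes were called higher and 580 lower. The 4 libraries fitted alone gave 449 and 97. Without line 3 of day 5, the library that stands apart, there were 1057 and 861 calls, of which 700 and 498 were among the calls above. The day 8 libraries weighed more, since 381 and 326 genes were called without line 1 of day 8 and 223 and 129 without line 3. Of 126 called genes named here, 96 and 68 were still called without these libraries, 110 without line 3 of day 5 and 103 without line 1 of day 5. All 12 libraries share 1 estimate of the spread, and the counts were 1511 and 1335 without line 1 of fl/fl day 8 and 1521 and 1343 without line 3 of it, while leaving out a day 1 library left 780 to 805 higher and 408 to 426 lower genes. P-values measure the spread between 2 lines per group.

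**Figure D1:**
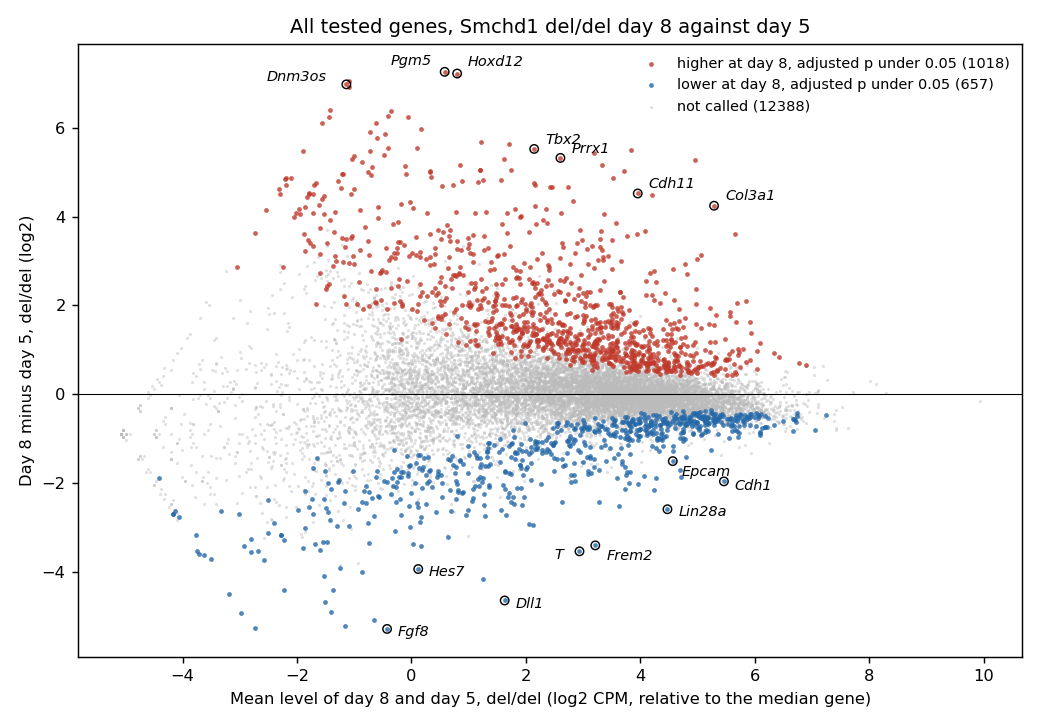
Day 8 minus day 5 log2 difference in del/del cells (vertical axis) against the mean log2 level of the 4 libraries (horizontal axis) for 14063 genes. Red points are the 1018 genes called higher, blue points the 657 called lower and grey points those not called. The increases reach beyond 7 log2 units (Hoxd12, Pgm5) and the decreases about -5 (Fgf8).

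Of the 12 tested 5′ Hox genes (paralog groups 10 to 13, at the 5′ end of the clusters), 9 rose and none fell. Their median log2 difference was 3.56, against -0.01 over all tested genes. None of the 14 tested 3′ genes (groups 1 to 5) and none of the 12 middle genes (groups 6 to 9) passed the test, and their medians were 0.42 and 0.63. At day 1, before differentiation, no Hox gene exceeded 0.962 CPM in del/del cells. Hoxd12 and Hoxd13 lie next to each other at the 5′ end of the HoxD cluster on chromosome 2, and the bases just upstream of their starts (RefSeq, GRCm38.p6, plus strand, outside the deposited gene) are shown because these neighbours rose together. Capitals mark CAGAC, the half-site bound by Smad proteins, CTTTGA, the core bound by TCF and LEF factors, and TTTATG, a core bound by Cdx factors, each on either strand.
Hoxd12, chr2:74674763-74674928: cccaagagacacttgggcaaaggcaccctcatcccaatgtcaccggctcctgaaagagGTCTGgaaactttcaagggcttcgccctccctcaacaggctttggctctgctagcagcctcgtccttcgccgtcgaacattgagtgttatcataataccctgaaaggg
Hoxd13, chr2:74667975-74668224: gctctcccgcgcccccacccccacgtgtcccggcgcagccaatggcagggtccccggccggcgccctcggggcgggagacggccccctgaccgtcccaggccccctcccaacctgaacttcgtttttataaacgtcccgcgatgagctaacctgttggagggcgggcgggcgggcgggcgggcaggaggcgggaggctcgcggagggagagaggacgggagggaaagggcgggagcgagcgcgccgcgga
The Hoxd12 stretch holds 1 CAGAC (in reverse), and the Hoxd13 stretch holds none of the 3 motifs and has a GC content of 74.4%. In RefSeq promoters of 300 bases, CAGAC occurred in 48.5% of those of genes called higher, 43.4% of those called lower and 47.4% of all tested genes with a promoter (691, 470 and 9617 genes).

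Hoxd12 (chr2:74674929-74677706) had 19.7 and 22.9 CPM at day 8 in line 1 and line 3, against 0.0812 and 0.249 CPM at day 5, where 7 reads were counted in both libraries together. The difference was 7.22 ± 0.79 log2 (adjusted p = 5.16e-04), and the ratio of read rates was 136 (95% exact interval 65.8 to 338, counting error only). Hoxd13 had 16.9 and 16.3 CPM at day 8, against 0.122 and 0.848 CPM at day 5 (5.69 ± 0.73, adjusted p = 0.0011). Both genes were thus all but silent in both lines before Gdf11 and well above that in both lines after it. Hoxc11 had 6.71 and 6.50 CPM at day 8 and 0.162 and 0 CPM at day 5 (6.27 ± 0.74), and Hoxc12, with no read at day 5, had 1.93 and 1.69 CPM at day 8, at least 27.0-fold higher than 3 reads over the group would give. Hoxa11 had 14.3 and 16.1 CPM at day 8, against 0.731 and 1.20 CPM at day 5 (4.02 ± 0.48), although 35% of its exon sequence overlaps the antisense gene Hoxa11os and the reads of the pair cannot be told apart without strand.

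Other 5′ genes had some reads at day 5, more in line 3. Hoxd11 had 34.1 and 41.5 CPM at day 8, against 1.58 and 7.23 CPM at day 5, and Hoxa10 had 13.4 and 16 CPM at day 8, against 0.569 and 2.39 CPM at day 5. Their differences of 3.47 ± 0.75 and 3.65 ± 0.75 log2 passed the test (adjusted p = 0.015 and 0.0121), as did those of Hoxa13 (3.30 ± 0.82) and Hoxc10 (2.90 ± 0.82, adjusted p = 0.0443, and 0.063 with the line as a block). Hoxb13, Hoxd10 and Hoxc13 were not called, at 3.10 ± 0.94, 2.63 ± 0.80 and 0.62 ± 0.41 log2. The count of 9 went down to 5 without either day 8 library and to 6 without line 1 of day 5 or with the 4 libraries fitted alone, and it was 11 without rescaling.

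The 3′ and middle genes told the lines apart at day 5. Line 3 exceeded line 1 at day 5 in 14 of 14 of the 3′ genes, 12 of 12 of the middle genes and 11 of 12 of the 5′ genes, against 47.5% of all tested genes. Hoxa9, a gene of the trunk-to-tail border, had 14.5 and 16.6 CPM at day 8, against 2.48 and 15.2 CPM at day 5, so that in line 3 the day 5 level was close to that of day 8 while in line 1 it was well below. Hoxb7 had 14.2 and 13.4 CPM at day 8 and 10.5 and 25.7 CPM at day 5, with the day 8 values between those of day 5. Within line 1 the median difference of the middle genes was 1.20 log2 and within line 3 it was 0.04. Of the middle genes Hoxb9, with 28.4 and 26.1 CPM at day 8 and 7.47 and 13.7 CPM at day 5, had separate groups but missed the threshold (1.43 ± 0.52, adjusted p = 0.1). Without line 3 of day 5, 1 of the 3′ genes and 2 of the middle genes were called higher.

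**Figure D2:**
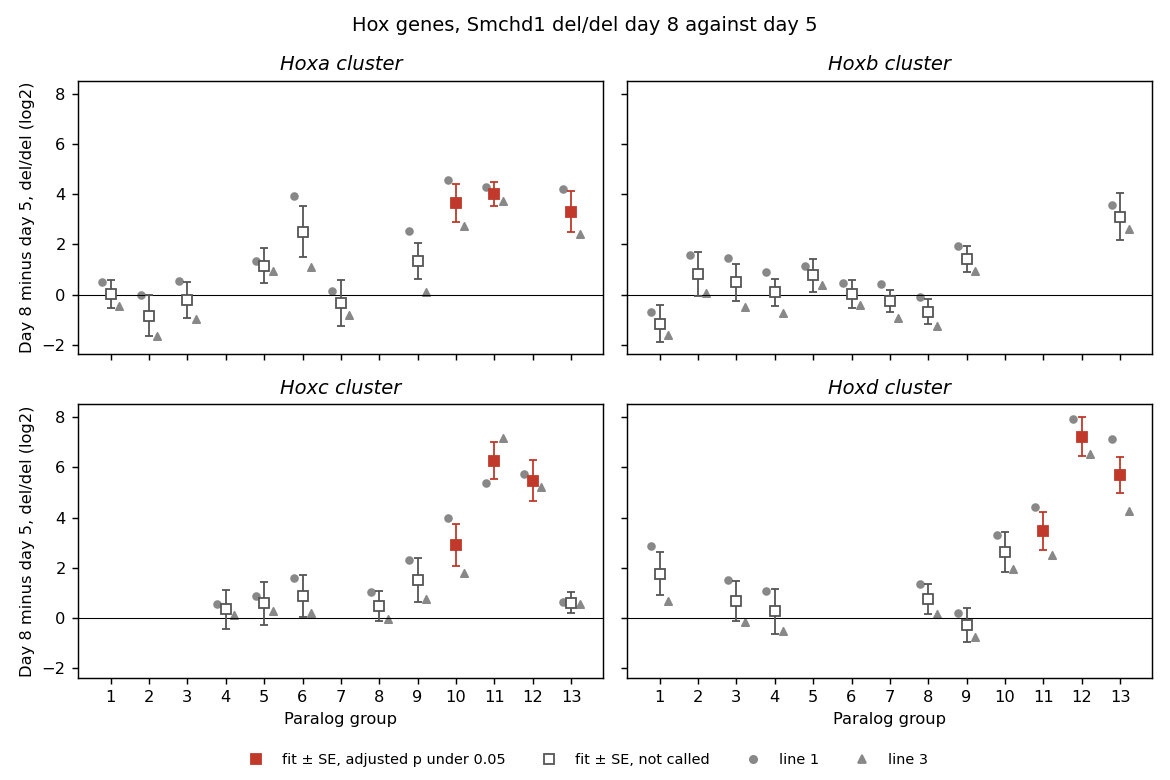
Day 8 minus day 5 log2 difference of 38 Hox genes in del/del cells (vertical axis) by paralog group (horizontal axis), 1 panel per cluster. Squares with bars are the limma fit ± SE, red where the adjusted p is under 0.05, and the small grey circle and triangle are line 1 and line 3 alone. The red squares stand at groups 10 to 13, and line 1 lies above line 3 at 37 of 38 genes.

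Of 16 tested caudal and NMP genes, 10 were lower at day 8 and none was higher, with a median of -1.5 log2, and all 16 had a negative difference. T, the Brachyury transcription factor, and Hes7, the oscillating repressor of the segmentation clock, were among the 12 largest decreases of all named genes, and the bases upstream of their starts are shown for that reason, with the same capitals.
T, chr17:8434173-8434422: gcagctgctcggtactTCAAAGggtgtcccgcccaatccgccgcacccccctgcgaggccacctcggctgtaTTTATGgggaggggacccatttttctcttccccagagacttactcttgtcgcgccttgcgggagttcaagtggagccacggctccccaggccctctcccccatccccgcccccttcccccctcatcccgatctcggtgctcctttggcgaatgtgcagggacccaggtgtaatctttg
Hes7, chr11:69120203-69120403: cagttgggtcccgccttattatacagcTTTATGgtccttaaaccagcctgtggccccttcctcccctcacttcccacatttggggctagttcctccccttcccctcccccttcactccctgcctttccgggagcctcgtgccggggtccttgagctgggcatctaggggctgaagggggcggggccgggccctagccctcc
TTTATG stands in both stretches, and the T stretch also holds 1 CTTTGA in reverse. TTTATG was found in 5.64% of the promoters of genes called higher, 5.96% of those called lower and 6.15% of those tested, and CTTTGA in 10.6%, 13% and 11.8%.

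T had 2.54 and 1.99 CPM at day 8, against 22.5 and 30.3 CPM at day 5 (-3.54 ± 0.43 log2, adjusted p = 8.4e-04). Fgf8, the Fgf ligand of the tail bud, had 0.141 and 0.101 CPM at day 8 and 2.60 and 8.33 CPM at day 5, which is 10 reads at day 8 against 231 at day 5 (-5.29 ± 0.85). In both genes all day 8 values lay under all day 5 values. The RNA-binding protein Lin28a, which promotes axis growth in the mouse embryo, had 9.37 and 8.74 CPM at day 8 and 46.1 and 64.5 CPM at day 5 (-2.59 ± 0.24). Cdx2, a caudal homeobox factor that maintains axial growth, had 9.04 and 6.65 CPM at day 8, against 21.1 and 32 CPM at day 5 (-1.74 ± 0.28), and its relatives Cdx4 and Cdx1 fell by 2.32 ± 0.58 and 1.21 ± 0.32 log2. Sox2, the second defining NMP factor and a neural progenitor factor, had 5.75 and 4.56 CPM at day 8 and 17.0 and 11 CPM at day 5 (-1.42 ± 0.22). In bulk RNA, fewer cells of a type and less RNA per cell cannot be told apart. Summed over the 13 NMP markers, the level was 52.1 and 60.8 CPM at day 8, against 148 and 198 CPM at day 5. Of these markers, Wnt3a had under 10 reads in both libraries of each day, and Fgf8 had under 10 in both of day 8. Without either day 8 library the count of 10 dropped to 6 or 5, and without rescaling it was 3.

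Of 8 tested Notch and segmentation clock genes, 4 were lower and none higher, with a median of -1.76 log2. Dll1, the Notch ligand of the presomitic mesoderm, had 0.399 and 0.957 CPM at day 8, against 8.16 and 29.4 CPM at day 5 (-4.65 ± 0.71, adjusted p = 0.00279). Hes7 had 0.235 and 0.327 CPM at day 8 and 1.91 and 9.48 CPM at day 5 (-3.94 ± 0.80), and Dll3, a divergent ligand that dampens Notch signalling, had 0.939 and 2.64 CPM at day 8 and 5.93 and 24.9 CPM at day 5 (-2.95 ± 0.79). All 3 fell in both lines, and in each line 3 held the higher day 5 value, as it did in all 8 genes of the list. Notch1, the receptor, fell by 1.20 ± 0.22 log2. Hes7 and Dll3 were no longer called without line 3 of day 5 (adjusted p = 0.053 and 0.16), and the list had 1 call without line 1 of day 8 and 2 without line 3 of either day.

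The presomitic mesoderm factors Tbx6 and Msgn1 showed how far the day 5 libraries differed. Tbx6 had 0.517 and 0.831 CPM at day 8, against 2.15 and 16.9 CPM at day 5 (-3.20 ± 0.97, adjusted p = 0.0561), and Msgn1 had 0.610 and 1.64 CPM at day 8, against 2.84 and 12 CPM at day 5 (-2.55 ± 1.00, adjusted p = 0.124). Neither was called, although the day 8 values lay below both day 5 values. Of 10 tested genes of streak and presomitic mesoderm, 1 was called lower, Cited1, a transcriptional co-regulator (-2.13 ± 0.42). Over all tested genes, 4.67% were called lower. Summed over 8 presomitic markers, the level was 6.74 and 7.96 CPM at day 8, against 19.5 and 79.4 CPM at day 5.

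Of 20 tested components of Gdf11 and Nodal signalling, 5 rose and 2 fell, all of them ligands, secreted inhibitors or the nuclear factor Foxh1, and the median was 0.19 log2. Over all tested genes, 7.24% rose and 4.67% fell. On the deposited scale 5 of the 20 rose and none fell, and with the 4 libraries fitted alone 4 rose and none fell. The receptors and the Smads of that list (Smad2, Smad3 and Smad4) did not pass the test. The endogenous Gdf11 transcript had 12 and 11.5 CPM at day 8, against 8.08 and 12.8 CPM at day 5 (0.21 ± 0.30), and the receptor Acvr2b had 2.70 and 2.77 CPM at day 8 and 4.02 and 4.59 CPM at day 5 (-0.65 ± 0.25, adjusted p = 0.116). Inhba and Inhbb encode the beta subunits of activins, ligands of the same receptors. Inhba had 3.26 and 3.63 CPM at day 8 and no read at day 5, at least 51.2-fold higher than 3 reads over the group, and Inhbb had 35.1 and 35.8 CPM at day 8, against 4.35 and 1.75 CPM at day 5 (3.69 ± 0.45). Lefty1 and Lefty2, secreted inhibitors of Nodal that are induced by the pathway, rose by 3.54 ± 0.36 and 3.36 ± 0.77 log2. Lefty1 had 5.17 and 2.54 CPM at day 8, against 0.325 and 0.299 CPM at day 5, after 11.2 and 14.7 CPM at day 1. Nodal itself had 0.540 and 0.504 CPM at day 8, against 1.58 and 2.00 CPM at day 5 (-1.77 ± 0.32), and Foxh1, a nuclear factor of the pathway, fell by 2.23 ± 0.29 log2. Follistatin (Fst), which binds activins and Gdf11, had 4.06 and 12.6 CPM at day 8 and 2.84 and 1.5 CPM at day 5. Its call (1.80 ± 0.51, adjusted p = 0.043) was lost with the line as a block (adjusted p = 0.058).

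Of 17 tested genes that respond to TGF-beta and BMP signals, 12 were higher and none lower, with a median of 1.09 log2. Tgfbi, a secreted matrix protein, had 27.8 and 41.3 CPM at day 8, against 2.07 and 0.848 CPM at day 5 (4.68 ± 0.58, adjusted p = 9.74e-04). Ctgf, a matricellular growth factor, had 71.9 and 71.0 CPM at day 8, against 16.7 and 11.5 CPM at day 5 (2.37 ± 0.23), and Pmepa1, a feedback inhibitor of Smad signalling, had 24.9 and 22.8 CPM at day 8, against 7.96 and 4.79 CPM at day 5 (1.95 ± 0.26). The inhibitory Smads Smad7 and Smad6 rose by 1.61 ± 0.30 and 1.68 ± 0.34 log2, and neither was called without either day 8 library (adjusted p = 0.0545 to 0.117). Skil, a Smad corepressor, rose less, by 1.09 ± 0.17 log2, and the BMP target Msx2 by 2.40 ± 0.32. In each of these the day 8 libraries lay above both day 5 libraries. The BMP ligand Bmp4 had 39.6 and 38.3 CPM at day 8, against 12.4 and 12.1 CPM at day 5 (1.67 ± 0.31). The count of 12 was 5 without line 3 of day 8 and 6 without line 1 of day 8.

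Of 11 tested Wnt ligands, 3 rose and 3 fell, and 1 and 1 were called without line 3 of day 8 or with the 4 libraries alone, 2 and 1 without line 1 of day 8, and 1 and 2 without line 1 of day 5. Wnt4 had 22.2 and 21.5 CPM at day 8, against 2.68 and 2.20 CPM at day 5 (3.17 ± 0.45, adjusted p = 0.00187), whereas Wnt6 had 6.03 and 4.48 CPM at day 8, against 35.7 and 24.6 CPM at day 5 (-2.51 ± 0.27). Wnt8a and Wnt5b also fell, by 1.83 ± 0.43 and 0.73 ± 0.18 log2. Wnt5a, a ligand that drives caudal outgrowth, had 16.7 and 13.7 CPM at day 8, against 3.65 and 7.38 CPM at day 5 (1.54 ± 0.44), and Wnt11 was the third to rise (2.02 ± 0.59). Wnt5a, Wnt5b and Wnt11 were not called with the read density trend removed (adjusted p = 0.0815, 0.0504 and 0.0629). Among 14 tested Wnt targets and feedback genes, 2 rose and 1 fell, against 7.24% and 4.67% of all tested genes. The pathway reporter gene Axin2 had 54.8 and 49.9 CPM at day 8, against 79.5 and 68.5 CPM at day 5 (-0.50 ± 0.15, adjusted p = 0.0515). Sp5, a Wnt-induced factor of the tail bud, had 8.90 and 11.2 CPM at day 8 and 36.9 and 37.4 CPM at day 5 (-1.90 ± 0.49). The pathway inhibitor Apcdd1 had 86.9 and 87.5 CPM at day 8 and 25.7 and 25.7 CPM at day 5 (1.76 ± 0.41). Neither Sp5 nor Apcdd1 was called without any 1 of the 4 libraries (adjusted p = 0.0566 to 0.15), and no gene of the list was called without either day 8 library or line 1 of day 5.

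Of 14 tested Fgf ligands and ERK feedback genes, 2 rose (Dusp6 and Spred1, inhibitors of ERK signalling, by 1.00 ± 0.17 and 0.66 ± 0.18 log2) and 2 fell (Fgf8, and the ERK-induced factor Etv5 at -0.54 ± 0.14, whose sign turns on the deposited scale). Of 13 tested retinoic acid genes 3 rose. Rarb, a receptor that retinoic acid induces, had 2.68 and 7.98 CPM at day 8, against 0.365 and 0.798 CPM at day 5 (3.10 ± 0.67), with 38% of its exon sequence shared with overlapping genes. Dhrs3 (3.17 ± 0.90), which limits retinoic acid by reducing retinaldehyde, and the receptor Rarg (0.76 ± 0.22) were not called with the line as a block (adjusted p = 0.063 and 0.065). Of 10 tested Hedgehog genes 3 rose, the transcription factors Gli2 (3.16 ± 0.58) and Gli1 (2.06 ± 0.47) and the co-receptor Cdon (1.5 ± 0.30). Gli2 had 3.92 and 4.06 CPM at day 8, against 0.284 and 0.699 CPM at day 5. Of 10 tested IGF genes 6 rose and none fell. Over all tested genes, 7.24% rose and 4.67% fell. Igfbp5 had 20.5 and 20.2 CPM at day 8, against 1.83 and 2.00 CPM at day 5 (3.41 ± 0.30), and Igfbp7 rose by 3.83 ± 0.42 log2. Both encode secreted proteins that bind insulin-like growth factors. Without line 3 of day 8, none of the Fgf, retinoic acid and Hedgehog genes and 2 of the IGF genes were called higher, and without line 1 of day 5 no retinoic acid gene was.

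Of 10 tested regulators of lateral and limb mesoderm, 5 rose and 1 fell, with a median of 1.67 log2. Tbx2, a T-box repressor, had 24.9 and 36.2 CPM at day 8, against 0.609 and 0.699 CPM at day 5 (5.52 ± 0.55, adjusted p = 3.43e-04). Prrx1, a homeobox factor of limb bud and body wall mesenchyme, had 38.9 and 38 CPM at day 8 and 0.772 and 1.20 CPM at day 5 (5.32 ± 0.72). Both stood apart from day 5 by more than an order of magnitude in each line. Hand2, which patterns the posterior limb bud, had 8.15 and 6.62 CPM at day 8 and 0.325 and 0.249 CPM at day 5 (4.69 ± 0.98). Its relative Hand1, a factor of lateral mesoderm and trophoblast, went the other way, with 1.53 and 0.730 CPM at day 8 and 4.39 and 4.44 CPM at day 5 (-2.06 ± 0.43). Of 6 tested paraxial derivatives 3 rose. Twist1, a bHLH factor of mesenchyme, had 26.8 and 30.1 CPM at day 8, against 2.36 and 3.39 CPM at day 5 (3.33 ± 0.26), and the somite factor Tcf15 rose by 1.52 ± 0.37 log2. Meis1, a cofactor that binds DNA with Hox proteins, rose by 2.10 ± 0.53 log2. Without line 3 of day 8, 2 limb and lateral genes and 2 paraxial genes were called higher and Meis1 was not, and without line 1 of day 8 the limb and lateral count was 3 and Meis1 was again not called (adjusted p = 0.0702).

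Of 19 tested collagens 12 rose and none fell, with a median of 3.03 log2. Col3a1, a fibrillar collagen, had 158 and 184 CPM at day 8, against 7.92 and 10.2 CPM at day 5 (4.24 ± 0.70). Col1a1, the main fibrillar collagen of connective tissue, had 172 and 219 CPM at day 8 and 2.96 and 8.43 CPM at day 5 (5.28 ± 1.02). Col5a1 and Col5a2, which regulate fibril assembly, rose by 3.14 ± 0.27 and 4.66 ± 0.43 log2, and Col6a2, of the microfibrillar collagen VI, by 5.43 ± 0.86. The basement membrane collagen Col4a1, in contrast, had 147 and 227 CPM at day 8 and 143 and 96.1 CPM at day 5 (0.64 ± 0.34, not called). Of 12 tested regulators of the epithelial-mesenchymal transition and mesenchyme, 7 rose and none fell (median 2.15). The mesenchymal cadherin Cdh11 had 71.2 and 77.6 CPM at day 8, against 3.09 and 3.39 CPM at day 5 (4.52 ± 0.67), the transcription factor Snai2 rose by 2.84 ± 0.52, and the ligand Tgfb2 by 4.16 ± 0.54. The intermediate filament Vim did not follow, with 94.8 and 95 CPM at day 8 and 95.8 and 88.9 CPM at day 5. Without line 3 of day 8, 6 collagens and 3 mesenchymal genes were called, and the mesenchymal count was 4 without line 1 of either day.

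Summed over 6 fibroblast markers the level was 284 and 385 CPM at day 8, against 19.5 and 37.6 CPM at day 5, and 9 of 13 tested fibroblast genes rose (median 3.03), or 4 without line 3 of day 8 and 6 without line 1 of either day. Pdgfrb, a receptor of stromal cells, had 18.6 and 20.4 CPM at day 8, against 1.18 and 0.898 CPM at day 5 (4.24 ± 0.48). Lum, a proteoglycan of fibroblasts, had 3.15 and 2.52 CPM at day 8 and no read at day 5, at least 42.3-fold higher than 3 reads over the group. Among the summed markers Col1a1 and Col1a2 are collagens, and Col1a1 gave most of the day 8 sum. The marker sum and the collagen increase are therefore not separate results. Whether the collagen increase comes from a separate population of fibroblast-like cells was not tested.

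Of 14 tested epithelial genes, 7 were lower at day 8 and none higher, the median was -1.35 log2, and all 14 had day 8 values below both day 5 values, against 56.4% of all tested genes with separate groups in either direction. Cdh1 (E-cadherin) had 19.3 and 25.8 CPM at day 8, against 105 and 72.3 CPM at day 5 (-1.96 ± 0.18, adjusted p = 2.34e-04). Epcam, an epithelial adhesion molecule, had 13.6 and 14.6 CPM at day 8, against 44.3 and 36.1 CPM at day 5 (-1.51 ± 0.13). The polarity protein Crb3, the splicing factor Esrp1 and the tight junction protein Cldn7 fell by 1.81 ± 0.18, 2.33 ± 0.35 and 1.54 ± 0.25 log2. At day 5, line 3 had the lower value in all 14. On the deposited scale 1 of the 14 was called.

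**Figure D3:**
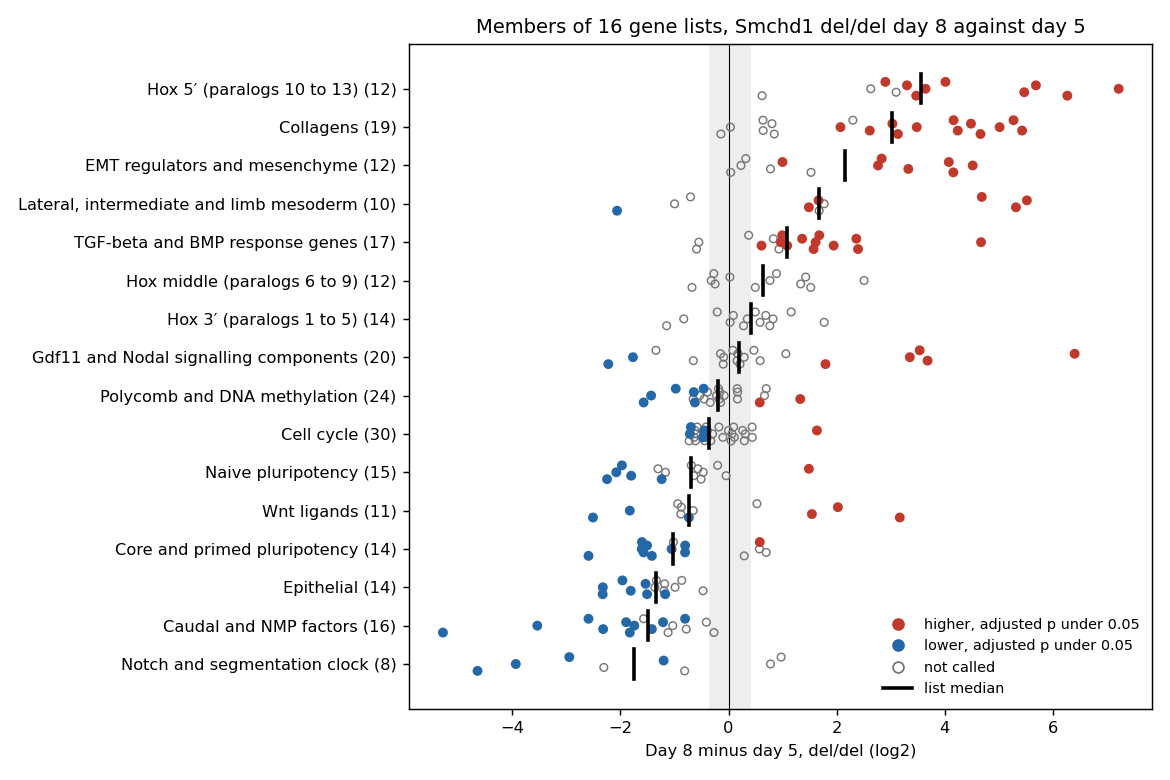
Day 8 minus day 5 log2 difference in del/del cells (horizontal axis) of each tested member of 16 gene lists (rows, number tested in brackets), with filled points where the adjusted p is under 0.05. Black bars are list medians and the grey band holds the middle quartiles of all tested genes. The medians run from -1.76 for the Notch and segmentation list to 3.56 for the 5′ Hox list.

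The 12 largest increases and the 12 largest decreases were named by a fixed rule (an adjusted p under 0.05, separate groups and a mean of at least 2 log2 CPM on the higher day). Pgm5, a phosphoglucomutase relative found at adhesion sites of muscle, led the increases with 16.2 and 21.1 CPM at day 8, against 0.325 and 0 CPM at day 5 (7.26 ± 1.03, adjusted p = 0.0019). Besides Hoxd12 and Hoxc11 they held 2 genes with no read at day 5. Slitrk6, a transmembrane protein that guides neurite growth, had 4.58 and 6.35 CPM at day 8 and was at least 80.9-fold higher, and the long noncoding RNA Dnm3os had 3.76 and 6.95 CPM at day 8 and was at least 78.9-fold higher, both against 3 reads over the group. Postn (periostin, a matrix protein, 6.12 ± 1.17) and Ddr2 (a collagen receptor kinase, 5.97 ± 0.76) belong to connective tissue. Mybpc1 (6.24 ± 0.91) is a myosin-binding protein of slow skeletal muscle, Lin7a (6.93 ± 1.06) a scaffold of cell junctions, Megf10 (5.87 ± 1.07) an engulfment receptor also used by muscle precursors, Bcl11a (5.91 ± 0.51) a zinc finger repressor, and Cygb (5.76 ± 0.76) a globin of fibroblasts. All 12 had at most 8 reads in the 2 day 5 libraries together, so their fold changes are loosely bounded. Lin7a had 428 reads at day 8 and 1 at day 5, a ratio of read rates of 232 with an exact 95% interval of 41.5 to 9196.

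Dnm3os (chr1:162217623-162225550) is transcribed from the opposite strand of an intron of Dnm3 and is the precursor of miR-199a and miR-214, microRNAs linked in the mouse to skeletal development. Dnm3 itself, a dynamin, had 6.27 and 7.98 CPM at day 8, against 0.244 and 0.200 CPM at day 5. The mature forms lying within the transcript (RefSeq, GRCm38.p6) are given with the seed, bases 2 to 8, in capitals. The 4 seeds differ from one another, and the small RNAs themselves were not measured here.
mmu-miR-199a-5p: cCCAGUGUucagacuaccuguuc
mmu-miR-199a-3p: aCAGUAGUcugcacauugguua
mmu-miR-214-5p: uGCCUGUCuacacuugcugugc
mmu-miR-214-3p: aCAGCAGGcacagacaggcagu

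Among the 12 largest decreases, 5 were the tail bud and segmentation genes Fgf8, Dll1, Hes7, T and Dll3. Ppl (periplakin), a cytoskeletal linker of epithelia, had 1.03 and 0.302 CPM at day 8, against 13.5 and 7.48 CPM at day 5 (-4.17 ± 0.59). Frem2, an extracellular matrix protein of embryonic epithelia, had 2.54 and 3.20 CPM at day 8 and 43.0 and 21.2 CPM at day 5 (-3.41 ± 0.27, adjusted p = 1.33e-04). Cxcr4, the chemokine receptor of migrating progenitors, had 1.13 and 0.781 CPM at day 8, against 4.02 and 9.83 CPM at day 5 (-2.74 ± 0.56). The other 4 were Smpd3 (a sphingomyelinase, -3.21 ± 0.60), Dpysl5 (a cytoskeletal regulator of neurons, -2.92 ± 0.20), Amph (an endocytic adaptor, -2.72 ± 0.30) and Myh14 (a nonmuscle myosin, -2.72 ± 0.70). In Dpysl5 and Amph the lines were close on both days, while Fgf8, Dll1, Hes7 and Dll3 had day 5 values that differed 3-fold or more between lines.

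**Figure D4:**
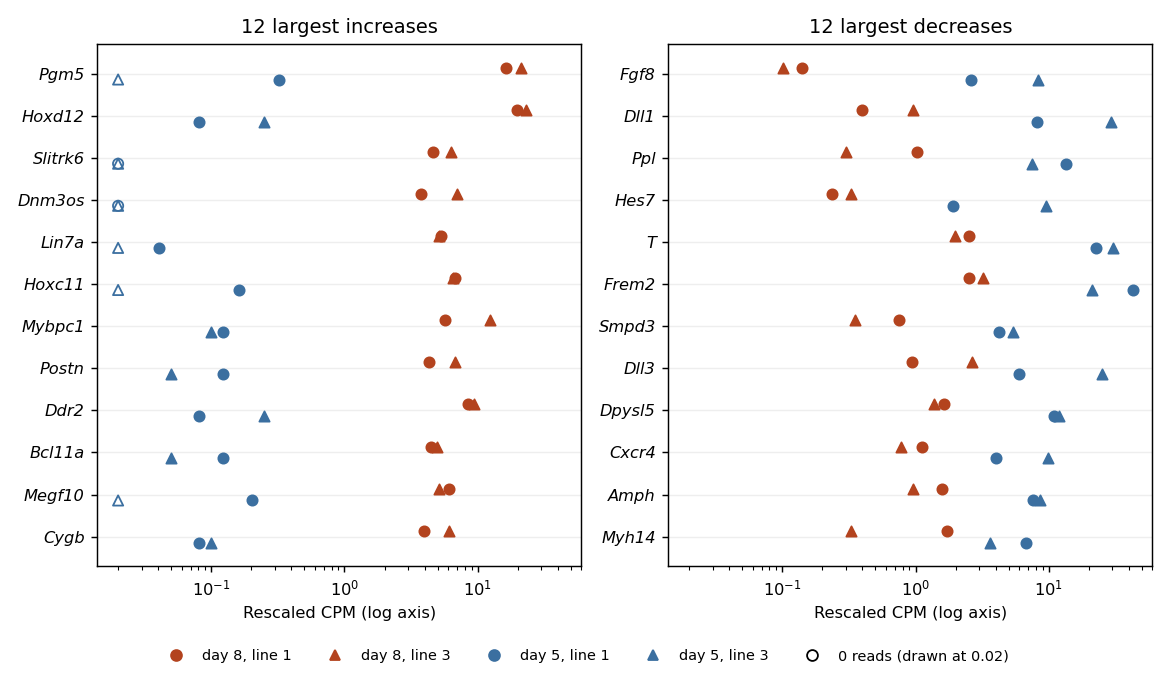
Rescaled CPM (horizontal log axis) of the 12 largest increases (left) and decreases (right) in the 4 del/del libraries, red for day 8 and blue for day 5, circles for line 1 and triangles for line 3. Open symbols are libraries with 0 reads, drawn at 0.02. Red and blue symbols do not overlap in any row, which the rule for naming required.

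Of 14 tested core and primed pluripotency genes, 9 were lower and 1 was higher, with a median of -1.04 log2. The de novo DNA methyltransferase Dnmt3b had 8.50 and 6.47 CPM at day 8, against 24.0 and 20.3 CPM at day 5 (-1.57 ± 0.21), and the chromatin protein Utf1 fell by 1.61 ± 0.23 log2. Pou5f1 (Oct4) had 18.1 and 15.4 CPM at day 8, against 31.6 and 26.9 CPM at day 5 (-0.80 ± 0.17, adjusted p = 0.0131). Of 15 tested naive genes, 5 fell and 1 rose, with Klf2 at -2.08 ± 0.34, Tdh, a threonine dehydrogenase of mouse ES cells, at -1.97 ± 0.32 and Nr0b1 at -1.80 ± 0.34 log2. Nanog did not pass, with 8.29 and 6.88 CPM at day 8, inside the range of 5.85 and 10.4 CPM at day 5. Tbx3 was the naive gene that rose (1.49 ± 0.32). It is also a limb and lateral mesoderm factor and counts in that list too. On the deposited scale 1 core gene and no naive gene was called lower. Without line 3 of day 8 the naive count was 2, and without line 3 of day 5 it was 8.

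Among 24 tested Polycomb and DNA methylation genes 2 rose and 6 fell, against 7.24% and 4.67% of all tested genes. On the deposited scale 2 were higher and none lower, and without line 1 or line 3 of day 8 none was higher and 3 or 2 were lower. Dnmt3l, the cofactor of de novo methylation, fell by 1.43 ± 0.23 log2 together with Dnmt3b, while Dnmt3a had 53.6 and 55.8 CPM at day 8, against 38.1 and 35.2 CPM at day 5 (0.58 ± 0.11, adjusted p = 0.00966), and Tet2, which oxidises methylcytosine, rose by 1.33 ± 0.27. Cbx7, the Polycomb subunit of ES cells, fell by 0.98 ± 0.21. Of 26 tested imprinted genes 2 rose and 3 fell, and without line 3 of day 8 none rose and 1 fell, without line 1 none and 2. Dlk1 had 27.4 and 34.9 CPM at day 8, against 1.58 and 6.09 CPM at day 5 (3.32 ± 0.71), and Phlda2, a growth-limiting gene of the placenta, had 1.69 and 1.28 CPM at day 8, against 6.21 and 10.8 CPM at day 5 (-2.48 ± 0.33). Among 30 tested cell cycle genes, 1 rose and 4 fell (median -0.36, but 0.34 on the deposited scale, where the sign turns). Ccnd2, a D-type cyclin, had 85.1 and 94.8 CPM at day 8, against 22.1 and 37.7 CPM at day 5 (1.64 ± 0.28), and the replication helicase subunit Mcm7 fell by 0.72 ± 0.12. The median of the cell cycle list was -0.074 with the read density trend removed, and 2 of its genes were then called higher and 1 lower. Of the cell cycle genes none was called lower without line 3 of day 8, 1 without line 1 of day 8 and 10 without either fl/fl day 8 library.

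Summed over 6 markers each, trophoblast had 35.7 and 23.0 CPM at day 8, against 60.4 and 33.9 CPM at day 5, and endothelium and blood had 7.4 and 3.0 CPM at day 8, against 8.93 and 3.24 CPM at day 5. The markers Elf5 (trophoblast) and Gata1 (blood) had no read at day 8, and under 10 reads in both libraries of day 5. Prl3b1 (trophoblast) and Hbb-y (blood) had under 10 reads in both libraries at day 5 but not at day 8. Tie1 (endothelium) had no read at day 5 and under 10 reads in both libraries at day 8. Runx1, a factor of blood and also of mesenchyme, rose, with 17.0 and 15.8 CPM at day 8, against 3.86 and 3.14 CPM at day 5 (2.23 ± 0.33). Extraembryonic endoderm markers had 9.49 and 35.8 CPM at day 8, against 13.8 and 8.08 CPM at day 5, with Ttr at 0 at day 8 in both lines. The whole list of 16 genes, most of its level from the basement membrane genes Col4a1, Col4a2, Lamb1 and Sparc, summed to 527 and 818 CPM at day 8, against 483 and 366 CPM at day 5, and 1 of its 12 tested genes rose. Neural progenitor markers, the other fate of NMPs, summed to 19 and 21.3 CPM at day 8, against 17.8 and 15.3 CPM at day 5, with Sox1 under 10 reads in every library of both days. Of 13 tested neural progenitor genes 3 rose and 1 (Sox2) fell, against 7.24% and 4.67% of all tested genes. Zic1, a zinc finger factor of dorsal neural tube and somites, had 13.9 and 22 CPM at day 8, against 2.68 and 1.65 CPM at day 5 (3.06 ± 0.45), and Nes, an intermediate filament of neural and other progenitors, rose by 1.38 ± 0.18. Of 6 tested cardiac genes 2 rose, among them Actc1 with 9.41 and 18.6 CPM at day 8, against 0.244 and 0.649 CPM at day 5 (5.06 ± 0.82). The lines differed over the cardiac list, whose median was -0.61 log2 within line 1 and 2.40 within line 3.

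The fl/fl cells underwent the same 3 days, and the design allows the difference of the 2 changes to be tested. In fl/fl cells 443 genes rose (3.15%) and 503 fell (3.58%), together 6.73% of those tested. The 2 comparisons share no library, but the lines are the same. Both also use the same estimate of each gene's spread, so the 2 sets of calls are not independent. Of the 1018 genes called higher in del/del cells 282 (27.7%) were also called higher in fl/fl cells, which is 63.7% of the fl/fl calls, and of the 657 called lower 172 (26.2%) were called lower in fl/fl cells, or 34.2% of the fl/fl calls, while 3 genes were called in opposite directions. Hoxd12 had 19.7 and 22.9 CPM in del/del and 1.76 and 0.861 CPM in fl/fl cells at day 8, and the changes of 7.22 and 4.48 log2 differed by 2.74 ± 1.11 (adjusted p = 0.351). The median change of the 5′ Hox genes was 3.56 log2 in del/del and 1.57 in fl/fl cells, and that of epithelial genes was -1.35 in del/del and -0.26 in fl/fl cells. No member of either list passed the test of the difference (smallest adjusted p = 0.228 and 0.114). One fl/fl library of day 8 (line 3) held 1.51 M gene reads, against 5.97 M in line 1, and its read numbers were unusual. In it 301 genes had 1 read, 906 had 2, 382 had 3 and 699 had 4, while in every other library fewer genes stood at each higher number up to 6. The reads recovered for that library may therefore not be single reads, and the fl/fl comparison at day 8 is less certain. Its column name is the only one that carries the word merge. Whether a merge underlies these read numbers was not tested.

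In the test of the difference, 1925 genes had an unadjusted p under 0.05. The count of genes that passed that test at an adjusted p under 0.05 in limma was 1 (0.00711% of those tested). That count was 2183 without line 1 of fl/fl day 8, 38 and 6 without line 3 and line 1 of del/del day 5, 3 without line 3 of fl/fl day 8, and 0 without any other single library. Mmp11, a matrix metalloproteinase of stromal and remodelling tissue, had 25.5 and 29.8 CPM at day 8, against 3.45 and 3.29 CPM at day 5, in del/del cells, and 6.22 and 7.03 CPM at day 8, against 3.88 and 4.63 CPM at day 5, in fl/fl cells. Its changes of 3.03 ± 0.19 and 0.64 ± 0.19 log2 differed by 2.39 ± 0.26 (limma adjusted p = 0.0306). With the line as a block the adjusted p was 0.0554. Without single libraries it ranged from 0.00187 to 0.257, the highest being without line 3 of del/del day 8, and it was over 0.05 without either del/del day 8 library, any day 1 library or either fl/fl day 5 library. The next 5 genes by this test did not pass. Igfbp3, an IGF-binding protein, rose by 1.89 ± 0.31 log2 in del/del cells and fell by 1.43 ± 0.31 in fl/fl cells (adjusted p of the difference 0.0535), and the adhesion receptor Bai2 rose by 1.51 ± 0.31 and fell by 1.65 ± 0.31 (0.0578). Stra8, a gene induced by retinoic acid in germ cells, had 1.76 and 2.80 CPM at day 8, against 0.609 and 0.798 CPM at day 5, in del/del cells, whereas in fl/fl cells it had 1 read at day 8 in both libraries together and 78 at day 5 (adjusted p of the difference 0.0593). Aoah, an enzyme that inactivates lipopolysaccharide, had 0.0235 and 0.0252 CPM at day 8, against 0.934 and 0.948 CPM at day 5, in del/del cells, and its change differed from that in fl/fl cells by -5.12 ± 0.65 (0.0535), and Arhgef10l differed by 2.15 ± 0.32 (0.0867).

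**Figure D5:**
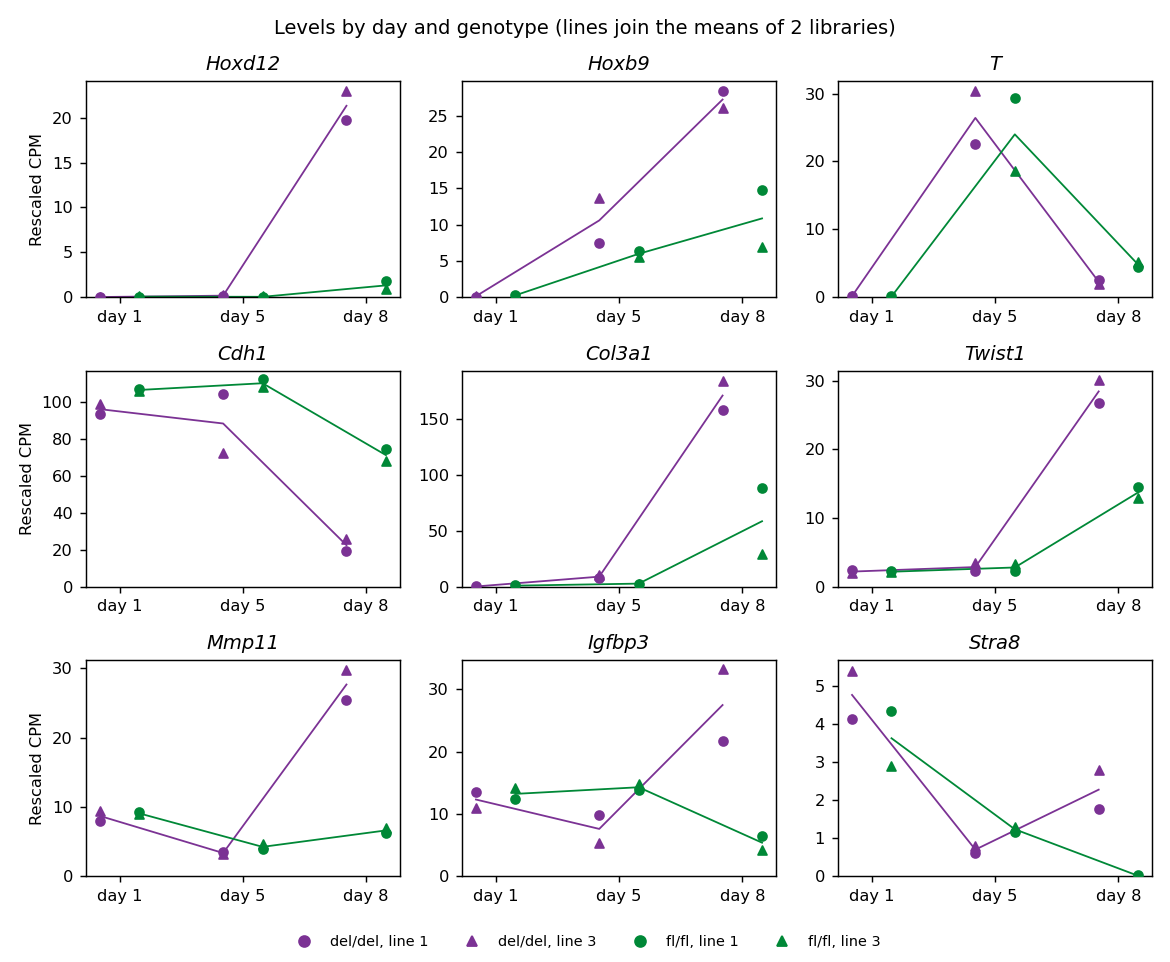
Rescaled CPM (vertical axis) of 9 genes at day 1, day 5 and day 8 (horizontal axis) in del/del (purple) and fl/fl (green) cells, with 1 symbol per library, circles for line 1 and triangles for line 3, and lines joining the means of 2. Hoxd12, Col3a1 and Mmp11 stand highest in the del/del day 8 libraries, T peaks at day 5 in both genotypes, and Stra8 reaches 0 or 0.0333 CPM in the fl/fl day 8 libraries.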

How the data were processed

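RNA-seq was made from 12 cultures (2 genotypes, 3 days, 2 ES lines). Per the submitters' processing notes, TopHat2 2.0.12, bcl2fastq, edgeR and the mm10 build were used, and the deposited table holds log2 CPM values for 25965 genes. Tested on the table, 2 to the power of each value is a whole multiple of a library's smallest step (within 0.02), with genes of 0 reads entered as 0.9 reads. Reads were recovered from these steps, and a library's depth is the sum of its gene reads. Intervals and floors (3 reads) cover counting error only, at the 95% level.

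Each library was set to the same median log ratio. Genes above 0 log2 CPM in at least 2 libraries were kept (14063). One mean per group was fitted over all 12 libraries in limma 3.58.1 (R 4.3.3) with a mean-variance trend and 6 residual degrees of freedom, with p-values adjusted by Benjamini-Hochberg. The effect of genotype on the change was an interaction contrast. The numbers of replicates mark ES lines present in every group, so they pair the samples by design (correlation of deviations between day 8 and day 5 in del/del cells 0.240, the highest of 15 pairs of groups, whose lowest was -0.154 and of which 3 exceeded 0.1), and a fit with the line as a block was an alternative. The others were the deposited scale, scaling by gene reads, other filters, a pseudocount of 2 reads, voom, fits on del/del libraries alone, leaving out each library, and, chosen after seeing the data, removal of the trend with read density. The fit was tested on simulated reads with the same variability (dispersion 0.08) for every gene and no difference between lines, unlike these data. It recovered 6.25% of 2-fold and 84% of 4-fold changes there.

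Genes were named by rule: the 12 largest called increases and decreases, all Hox genes, up to 5 genes of smallest p per list and the 6 of smallest p in the interaction, besides uncalled members given as values. Earlier results of these data were known when the samples and gene lists were chosen. The rule for the samples used column names and no measured value, and list counts are descriptions. Python 3.11.15, pandas 2.3.3, SciPy 1.17.1 and matplotlib 3.10.9 were used for tables and figures. Some genes that met the rule are not reported here.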

Additional observations from a re-analysis of the deposited data

Results flagged for a closer look

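The day 8 minus day 5 change of Mmp11 differed between genotypes by 2.39 log2 (3.03 in del/del and 0.64 in fl/fl cells, limma adjusted p = 0.0306), and it was singled out because the test of that difference passed the threshold. Both del/del lines rose, to 25.5 and 29.8 CPM at day 8, and the adjusted p under the alternatives ran from 0.00187 to 0.257. The cause was not tested.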

How the results depend on the processing

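Counts of genes higher and lower at day 8 (1018 and 657) were 449 and 97 with the 4 del/del libraries alone, and the count of lower genes was 51 on the deposited scale and 240 without a filter. Leaving out 1 library gave 223 to 1521 higher and 129 to 1343 lower genes, and 0 to 2183 genes (the highest without line 1 of fl/fl day 8) in the test between genotypes (1 in the fit reported), where the deposited scale gave 26, removal of the read density trend 3, voom 0 and the replicate block 0. With the block, 926 genes were higher and 579 lower, of which 901 and 554 were shared, and of 126 named called genes 120 were still called. Of these, 54 were called under every alternative. On the deposited scale Etv5 (0.16, adjusted p = 0.777) and Mcm5 (0.0045, adjusted p = 0.993) turned positive, and the list medians were -0.79 for caudal and NMP, -1.05 for Notch, 1.79 for TGF-beta response, 3.73 for collagens, 2.85 for mesenchyme, 2.37 for limb and lateral mesoderm, -0.65 for epithelial, -0.34 for core pluripotency and 0.34 for cell cycle genes, the scale itself moving all genes by the same amount. Without a filter they were -0.85 (Notch), 1.30 (TGF-beta response), 3.23 (collagens), 0.26 (limb and lateral), -1.15 (epithelial) and -0.16 (cell cycle), and with a stricter one -2.30 (Notch) and 1.23 (TGF-beta response), where other members were tested. With the density trend removed they were 2.69 (collagens), -1.11 (epithelial) and -0.074 (cell cycle). In that fit 11 of 18 collagens and 11 of 16 TGF-beta response genes were called higher. The higher count was 8 for fibroblast, 6 for mesenchyme, 2 for retinoic acid, 5 for IGF and 3 for imprinted genes. The lower count was 7 for core pluripotency, 4 for Polycomb and DNA methylation, 11 for caudal and NMP and 6 for naive genes. Leaving out 1 library gave medians of -0.53 to 1.22 for 3′ Hox, -0.17 to 1.44 for middle Hox, 2.69 to 4.47 for 5′ Hox, -1.71 to -1.35 for caudal and NMP, -2.55 to -0.96 for Notch, 1.07 to 1.38 for TGF-beta response, 2.68 to 3.38 for collagens, 1.63 to 2.57 for mesenchyme, 1.54 to 1.78 for limb and lateral, -1.56 to -1.22 for epithelial, -1.55 to -0.77 for core pluripotency and -0.48 to -0.13 for cell cycle genes. The 3′ and middle Hox medians were negative without line 1 of day 5. Other causes were not tested.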
